A study of Homo sapiens with 4 samples.

Results

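The expression of 8 liver-enriched transcription factor genes was followed in Hep-G2, a line derived from a human hepatoma, after knockdown of the RNA demethylase gene FTO. The 8 genes are the nuclear receptors HNF4A and HNF4G, the forkhead factors FOXA1, FOXA2 and FOXA3, the cut-homeodomain factors ONECUT1 and ONECUT2, and the homeobox gene PROX1. They were taken by name from the 62893 genes of the count tables, with earlier results of these data known. All 8 matched an Ensembl identifier and all 8 were among the 13767 genes with enough reads to be tested.

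RNA of cells at passage 21 was sequenced from 2 groups, with 2 count tables each. The sample titles mark the tables of a group as rep1 and rep2, here called run 1 and run 2. The titles do not say whether they are separate cultures. The scramble group carried the control shRNA that the labels call SHC002. The shFTO group carried 1 shRNA against FTO, TRCN0000246247, so an effect of FTO loss cannot be told apart from an effect of that hairpin alone. The runs of a group agree within sampling noise over all genes (chi-square per degree of freedom 1.019 for scramble and 1.013 for shFTO, with p = 0.0648 and 0.142 by the chi-square test, against 118.5 to 120.4 per degree of freedom between groups), as did the runs of each of the 8 genes in both groups. Runs were therefore pooled and counted as 1 sample per group. Each interval below is an exact 95% interval (Clopper-Pearson) of the split of pooled reads between the groups, and it covers counting error only. No value has a check against separate cultures, and single genes carry no p-value.

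Tables summed to between 20047409 and 20706611 gene-assigned reads. FTO itself had 594 and 550 reads under scramble against 116 and 128 under shFTO, which is 5.32-fold lower (4.63 to 6.13). Levels are in CPM, reads scaled to a common library size with TMM factors (trimmed mean of M values), and levels of different genes are compared per kilobase of exon (RPKM). The 8 hepatocyte and hepatoma markers checked were all present in both groups. Their pooled levels ran from 51.1 to 12998 CPM in scramble and from 2.58 to 4454 CPM in shFTO. Each of these markers was at least 20% lower in shFTO, as were 21.8% of all tested genes with an interval that left out 1. Markers of pancreas, endothelium and blood stayed at or under 0.622 CPM summed over each list in every run. In RNA from a whole culture, fewer cells of a kind and less RNA per cell cannot be told apart.

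The 8 factors belong to the network that sets up and maintains hepatocyte gene expression. FOXA proteins are pioneer factors, which bind sites in closed chromatin and precede the other factors at liver genes in the embryo. HNF4A binds direct repeats as a homodimer and drives genes of plasma proteins, lipid transport and glucose production. ONECUT1, also known as HNF6, acts in hepatoblasts and in bile duct formation, and PROX1 is needed for hepatoblast migration and acts as a corepressor of nuclear receptors in the adult liver. These factors are known to bind each other's promoters.

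Promoter windows show where such cross-binding could be read in the sequence. RefSeq windows on GRCh38.p14 were at hand for 5 of the 8 genes, 6 windows in all, since HNF4A has 2 annotated start regions. The 250 bases before the start are printed for both HNF4A windows, because the deposited counts add up reads of both, and for FOXA1 and ONECUT1, the members furthest above and below scramble. Each runs 5′ to 3′ on the gene's strand, and capitals mark every match to one of the motifs searched on both strands. These motifs were GTTAATNAT for HNF1 and CAAAGTCCA for HNF4 (each with 1 mismatch allowed), TGTTTAC and TGTTTGC for FOXA, and ATCGAT and ATCAAT for ONECUT.
HNF4A distal window, chr20:44355449-44355698, plus strand: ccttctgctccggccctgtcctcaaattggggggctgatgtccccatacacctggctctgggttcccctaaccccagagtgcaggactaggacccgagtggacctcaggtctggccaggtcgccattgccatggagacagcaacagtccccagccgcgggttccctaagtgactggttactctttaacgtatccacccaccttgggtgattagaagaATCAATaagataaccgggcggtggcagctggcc
HNF4A proximal window, chr20:44400989-44401238, plus strand: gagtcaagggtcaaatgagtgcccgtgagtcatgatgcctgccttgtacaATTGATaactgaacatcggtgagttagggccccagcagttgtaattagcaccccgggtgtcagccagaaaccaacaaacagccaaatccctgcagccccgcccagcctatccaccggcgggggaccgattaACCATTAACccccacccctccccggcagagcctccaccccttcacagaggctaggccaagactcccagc
FOXA1 window, chr14:37595250-37595499, minus strand: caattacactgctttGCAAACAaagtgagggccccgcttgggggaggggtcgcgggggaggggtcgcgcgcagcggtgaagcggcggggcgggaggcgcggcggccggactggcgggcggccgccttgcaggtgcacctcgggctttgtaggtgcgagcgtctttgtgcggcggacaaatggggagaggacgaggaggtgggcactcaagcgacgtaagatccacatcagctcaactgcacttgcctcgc
ONECUT1 window, chr15:52790337-52790586, minus strand: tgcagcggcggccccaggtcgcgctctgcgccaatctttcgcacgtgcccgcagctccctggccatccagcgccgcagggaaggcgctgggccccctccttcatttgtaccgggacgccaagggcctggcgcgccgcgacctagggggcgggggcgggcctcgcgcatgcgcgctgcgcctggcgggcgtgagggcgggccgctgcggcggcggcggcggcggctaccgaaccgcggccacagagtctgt

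The letters of an ONECUT motif stood in both HNF4A windows. ATCAAT lay 33 to 28 bases before the distal start, and its reverse complement ATTGAT lay 200 to 195 bases before the proximal start. The proximal window also held ACCATTAAC, an HNF1 match on the opposite strand with 1 mismatch, 69 to 61 bases before the start. The FOXA1 window held GCAAACA, the reverse complement of TGTTTGC, 235 to 229 bases before its start. No match stood in the ONECUT1 window, nor in those of FOXA3 and ONECUT2. Of all 35116 windows of this length, 5.58% held ATCAAT, 0.655% ATCGAT, 11.2% the HNF1 motif, 3.23% TGTTTGC, 2.98% TGTTTAC and 5.94% the HNF4 motif. A match is a stretch of letters, and no binding was measured. The end of the window past the start lay in a GENCODE 29 transcript of the gene for distal HNF4A, FOXA1 and FOXA3. For proximal HNF4A, ONECUT1 and ONECUT2 it did not, so positions before those starts rest on the RefSeq annotation alone. The ONECUT1 window was 76.8% G and C with 37 CpG, the HNF4A windows were 58.4% and 58% with 8 CpG each, and the median of all windows was 58%.

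Of the 8 regulators 6 were lower in shFTO and 2, FOXA1 and PROX1, were higher. A gene was called when its pooled level was at least 25% higher or at least 20% lower in shFTO, with an interval that left out 1. By this rule 5 members were called lower (HNF4A, HNF4G, FOXA2, ONECUT1 and ONECUT2) and 1 higher (FOXA1). Over all tested genes the same rule called 21.8% lower and 20.1% higher. Only ONECUT1 was past 2-fold, a distance that 11.3% of tested genes reached in either direction. With edgeR (quasi-likelihood test, Benjamini-Hochberg adjustment) all 8 were called, beside 66.6% of all tested genes. That test takes its spread from runs that did not differ detectably beyond sampling, so it compares these libraries, not the conditions. The median log2 ratio was -0.39 over the 8 members and 0.01 over all tested genes. Under scaling by total reads alone (plain library size), the median of all genes became 0.18, and 2 members were called lower and 2 higher, beside 14.3% and 33.2% of all tested genes.

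**Figure D1:**
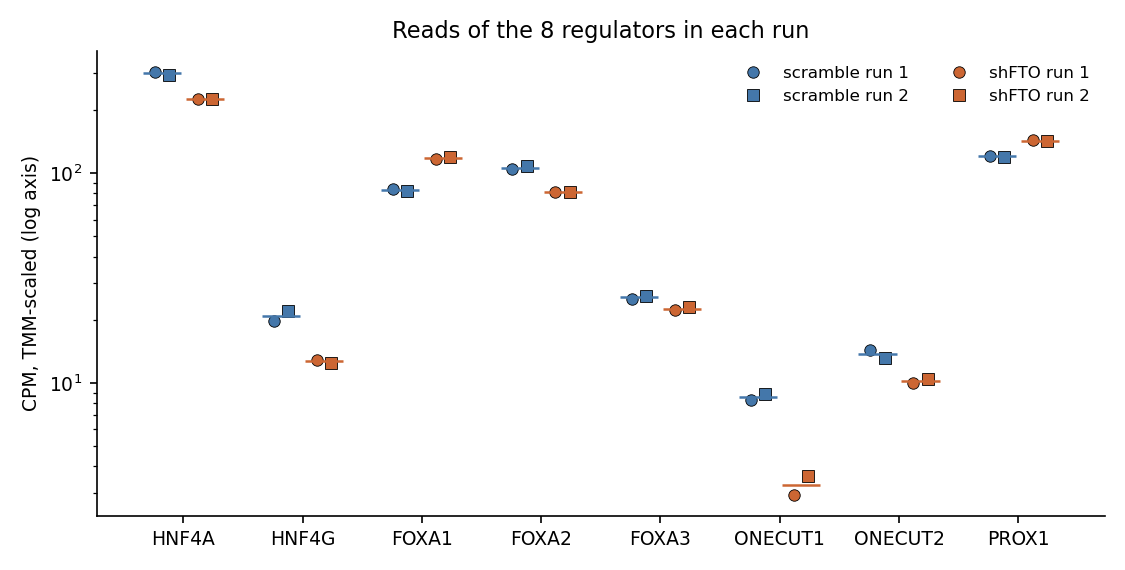
CPM (TMM-scaled, log axis) of each regulator in the 2 scramble runs (blue) and the 2 shFTO runs (orange), with circles for run 1, squares for run 2 and lines for the pooled level. The 2 runs of a group lie close together for every gene. The groups stand furthest apart for ONECUT1, at 8.53 against 3.28 CPM.

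HNF4A, the most heavily read member, was 1.32-fold lower in shFTO (1.28 to 1.35). Its scramble runs held 5733 and 5662 reads, or 303 and 293 CPM, and its shFTO runs held 4837 and 4966 reads, or 226 CPM each. The log2 ratio of HNF4A was -0.40. Its call ended under plain library size (1.17-fold lower, 1.14 to 1.21) and with the trend of log2 ratio on expression level removed (-0.30), an alternative added after the data were seen. Of all tested genes, 20.1% had a lower log2 ratio. HNF4G, a close paralogue known from gut, was at 19.8 and 22 CPM in scramble and 12.9 and 12.4 in shFTO. It was 1.65-fold lower (1.48 to 1.84), further below scramble than HNF4A. Reads of HNF4A per HNF4G read went from 15.3 and 13.4 under scramble to 17.5 and 18.2 under shFTO, a ratio 1.252-fold higher (1.12 to 1.40). Per kilobase HNF4A made up 91% and 89.8% of the pair's level in scramble and 92% and 92.3% in shFTO. Tables of reads per gene do not separate transcripts of the 2 HNF4A start regions, nor the isoforms that the adult liver and the fetal liver are known to favour.

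The 3 FOXA genes differed between the groups unequally. FOXA1 had 1580 and 1581 reads in scramble and 2497 and 2620 in shFTO, which is 83.6 and 81.9 against 117 and 119 CPM. It was 1.43-fold higher (1.36 to 1.49), and 86.4% of tested genes had a lower log2 ratio. FOXA2, which is tied to gut tube formation and to fasting metabolism in the liver, had 104 and 108 CPM in scramble and 80.9 and 81.1 in shFTO. It was 1.31-fold lower (1.247 to 1.37). Its call ended under plain library size (1.16-fold lower, 1.11 to 1.22) and with the trend on exon length removed, also added after the data were seen (log2 ratio -0.28 in place of -0.38). FOXA3, the family member that is most abundant in adult liver, had 25.2 and 26 CPM in scramble and 22.2 and 23 in shFTO. Its difference was small, 1.13-fold lower (1.03 to 1.24), and under plain library size its interval took in no change (1.01-fold lower, 0.92 to 1.10). FOXA3 also lost its edgeR call under plain library size, without scramble run 2 and without shFTO run 1, and it was not called by DESeq2.

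The balance between FOXA1 and FOXA2 does not depend on how libraries are scaled, because both are read in the same library. There were 0.806 and 0.761 FOXA1 reads per FOXA2 read in scramble and 1.44 and 1.47 in shFTO, a ratio 1.86-fold higher (1.75 to 1.99). Against FOXA3, FOXA1 was 1.61-fold higher (1.46 to 1.78) and FOXA2 1.15-fold lower (1.04 to 1.28). The summed RPKM of the family, which does depend on the TMM scaling, stayed between 70.5 and 73.8 in all 4 runs. FOXA1 took 29% and 27.9% of that sum in scramble and 41.5% and 41.9% in shFTO. FOXA2 took 55.1% and 56.1% in scramble and 44.1% and 43.5% in shFTO, and FOXA3 between 14.4% and 16.1% in every run. Which gene leads in shFTO rests on the length used. With the longest coding transcript in place of all annotated exons, an alternative added after the data were seen, FOXA1 took 47.8% and 48% and FOXA2 39.1% and 38.7% in the shFTO runs, whereas FOXA2 led in scramble by either length.

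**Figure D2:**
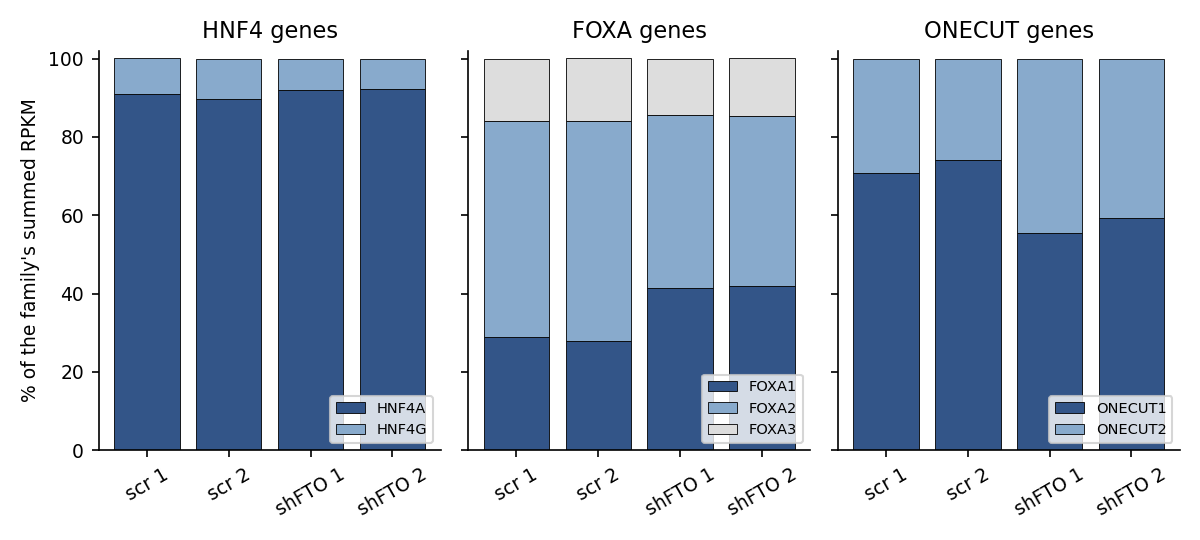
Share of each gene in its family's summed RPKM (percent, by union of annotated exons) for the HNF4, FOXA and ONECUT genes in scramble (scr) runs 1 and 2 and shFTO runs 1 and 2. The FOXA1 part is 27.9 to 29% in scramble and 41.5 to 41.9% in shFTO, and the ONECUT1 part is 70.8 to 74% and 55.5 to 59.3%.

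ONECUT1 showed the largest difference of the 8 genes. It was covered by 156 and 170 reads under scramble and by 63 and 79 under shFTO, or 8.26 and 8.81 against 2.94 and 3.6 CPM. The transcript was 2.60-fold lower (2.13 to 3.19), and its log2 ratio was -1.38. Of all tested genes 93.4% had a smaller log2 ratio in absolute size. ONECUT2, a paralogue that shares the cut domain and homeodomain, had 14.3 and 13.1 CPM in scramble and 9.96 and 10.4 in shFTO. It was 1.34-fold lower (1.18 to 1.53), and 1.19-fold lower (1.05 to 1.36) under plain library size, which ended its call. The number of ONECUT1 reads per ONECUT2 read went from 0.576 and 0.675 to 0.296 and 0.345, 1.94-fold lower (1.53 to 2.47). Per kilobase ONECUT1 made up 70.8% and 74% of the pair in scramble and 55.5% and 59.3% in shFTO. The summed level of the pair was 3.03 and 3.09 RPKM in scramble and 1.38 and 1.58 in shFTO. By the longest coding transcript the sum was 4.84 and 5.02 against 2.03 and 2.37 RPKM, and the share of ONECUT1 81.7% and 83.8% against 69.5% and 72.7%. ONECUT3, the remaining family member, had 1 and 2 reads in scramble and 8 and 4 in shFTO, too few to test.

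PROX1 was slightly higher in shFTO. It had 2284 and 2293 reads in scramble and 3052 and 3108 in shFTO, which is 121 and 119 against 143 and 142 CPM. The difference was 1.19-fold (1.14 to 1.23), short of the 25% used for calls, and 43% of tested genes had a smaller log2 ratio in absolute size. Under plain library size it was 1.33-fold higher (1.28 to 1.39). With the trend on exon length removed, its log2 ratio was 0.16 in place of 0.25. PROX1 also marks lymphatic endothelium. The endothelial and lymphatic markers PECAM1, PDPN and KDR had no read in any run, and LYVE1, FLT4 and CDH5 had at most 5 in a run. The part of such cells in the PROX1 value was not tested.

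**Figure D3:**
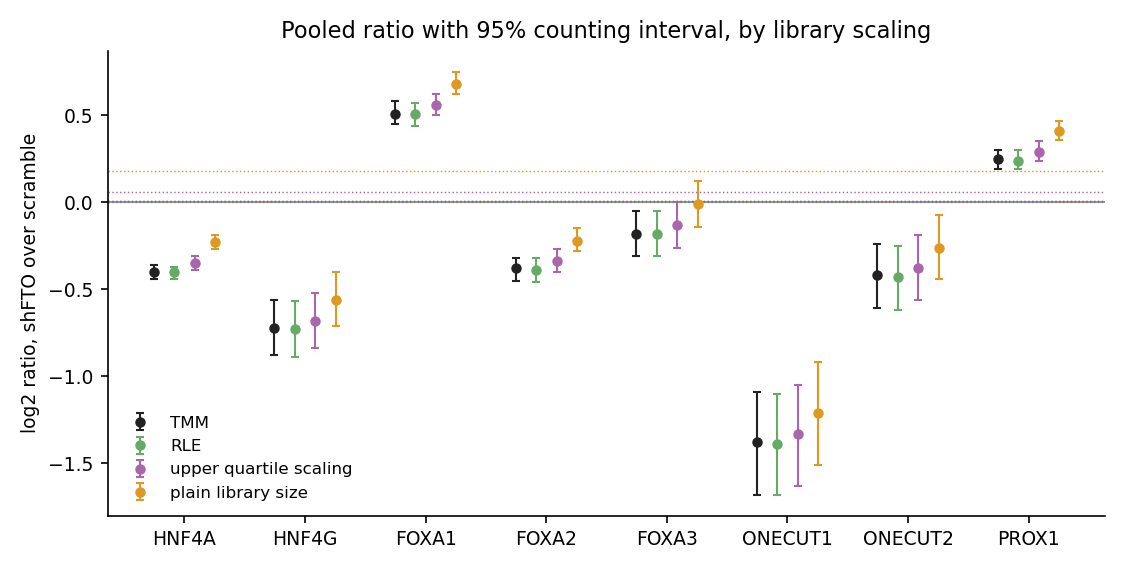
Log2 ratio of shFTO over scramble for each regulator with its 95% counting interval under 4 library scalings (TMM, the ratio-based size factors RLE, upper quartile, plain library size), with dotted lines at the median of all tested genes under each. Plain library size moves every gene up together, so that FOXA3 reaches -0.01 and PROX1 0.41, while the order of the genes is the same under all 4.

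Ratios between genes of different families, which are likewise free of scaling, set ONECUT1 and PROX1 apart from HNF4A and FOXA2. HNF4A and FOXA2 kept step, with 2.92 and 2.72 HNF4A reads per FOXA2 read in scramble and 2.79 in each shFTO run, a ratio of 0.99 with an interval of 0.94 to 1.04. Of the 11 pairs compared, this was the 1 whose interval included 1. With the trend on exon length removed, the log2 ratios were -0.47 for HNF4A and -0.28 for FOXA2, in place of -0.40 and -0.38. After that removal HNF4A and FOXA2 lay further apart. Against PROX1, HNF4A was 1.56-fold lower (1.49 to 1.64) and FOXA2 1.55-fold lower (1.46 to 1.64). Against ONECUT1, HNF4A was 1.97-fold higher (1.61 to 2.43) and FOXA2 1.995-fold higher (1.62 to 2.46). Pairs across families were limited to HNF4A, FOXA2, ONECUT1 and PROX1, so FOXA1 was compared within its family only. Of the 11 pairs, ONECUT1 with PROX1 lay furthest from 1, at 0.0683 and 0.0741 ONECUT1 reads per PROX1 read in scramble and 0.0206 and 0.0254 in shFTO, 3.09-fold lower (2.52 to 3.8).

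**Figure D4:**
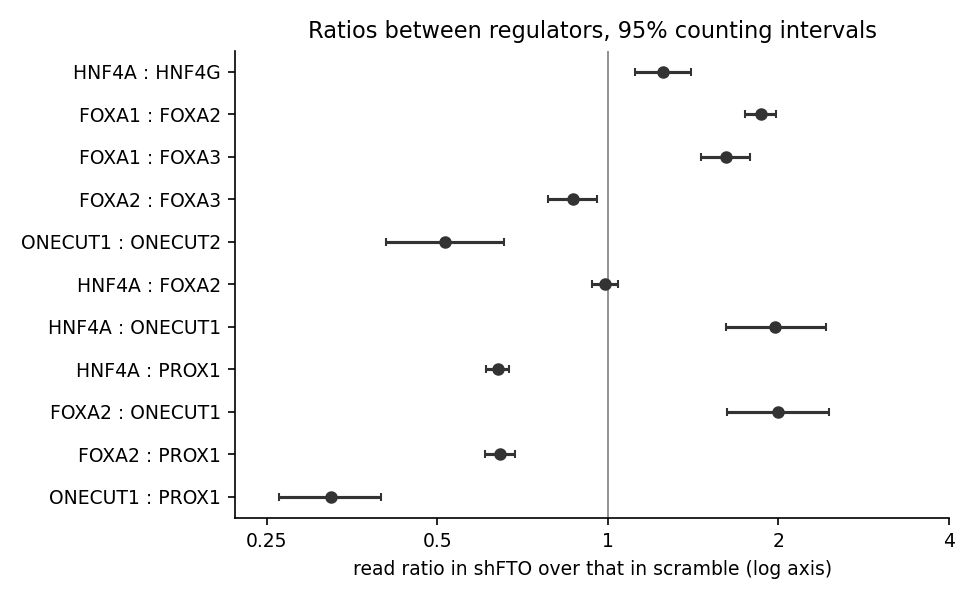
Change of the read ratio between 2 regulators, shFTO over scramble (log axis), with exact 95% counting intervals, for 11 pairs within and across families. FOXA1 against FOXA2 stands at 1.86 and ONECUT1 against PROX1 at 0.32, whereas HNF4A against FOXA2 stands at 0.99.

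Levels per kilobase of all annotated exons ordered the 8 genes in the same way in both groups, apart from the top. In scramble HNF4A and FOXA2 led with 40.8 and 40.6 RPKM, and their runs overlapped (41.5 and 40.1 against 39.9 and 41.4). FOXA1 followed with 20.8, PROX1 with 13.4, FOXA3 with 11.7, HNF4G with 4.35, ONECUT1 with 2.22 and ONECUT2 with 0.843 RPKM. In shFTO the first 3 lay close together, FOXA2 at 31.1, HNF4A at 30.9 and FOXA1 at 29.7 RPKM. That order rests on the length used: by the longest coding transcript the shFTO runs gave FOXA1 40.9 and 41.6, HNF4A 35.1 in each and FOXA2 33.4 and 33.5 RPKM. PROX1 followed with 15.9, FOXA3 with 10.3, HNF4G with 2.64, ONECUT1 with 0.851 and ONECUT2 with 0.628 RPKM. Among tested genes HNF4A stood at the 91.4th percentile of RPKM in scramble and the 89.4th in shFTO, whereas ONECUT1 went from the 35.3rd to the 20.4th. FOXA1 went from the 83rd to the 88.9th.

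Transcripts that overlap or adjoin the members were read beside them, since the strand setting of the counting is not given in the sources used here and overlapping transcripts on opposite strands cannot be told apart without it. HNF4A-AS1, antisense to HNF4A, had 14 and 13 reads in scramble and 6 and 4 in shFTO, lower like HNF4A (3.06-fold, 1.44 to 7.09). LINC00261, the noncoding gene next to FOXA2 on the same strand, had 2648 and 2689 reads in scramble and 1905 and 1923 in shFTO. It was 1.58-fold lower (1.52 to 1.65), the same direction as FOXA2. PROX1-AS1, which overlaps PROX1 on the opposite strand, had 44 and 66 reads against 106 and 92 and was 1.59-fold higher (1.251 to 2.02), the direction of PROX1. TTC6, which overlaps FOXA1 on the opposite strand, had 123 and 145 reads against 153 and 169, and was 1.06-fold higher with an interval that included 1. MIPOL1, the coding gene on the other side of FOXA1, was 1.48-fold lower (1.35 to 1.63), opposite to FOXA1. Counting the nearest coding gene on each side of every member, MIPOL1 included, 10 of 16 had enough reads to be tested. Of these 10, 2 differed in the direction of their member, 4 in the opposite direction, and 4 had an interval that included 1. The interval left out 1 for 69.1% of all tested genes, so 6 of 10 is near the background. The 2 were SSTR1 beside FOXA1, with 2 and 1 reads in scramble and 19 and 11 in shFTO, and WDR72 beside ONECUT1, with 28 and 31 against 20 and 14 reads (1.97-fold lower, 1.27 to 3.10). The opposite direction was seen for MIPOL1, for SYMPK (1.14-fold higher, 1.10 to 1.19) and IRF2BP1 on the 2 sides of FOXA3, and for SMYD2 beside PROX1 (1.24-fold lower, 1.17 to 1.30).

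Other transcription factors of the hepatocyte network went both ways. Of 21 listed, 20 were matched and 18 tested, with 7 called higher, 6 lower and 5 neither (median log2 ratio 0.11). Over all tested genes 20.1% were called higher and 21.8% lower. Under plain library size 9 were higher and 6 lower, beside 33.2% and 14.3% of all tested genes. Furthest above scramble were CEBPA, 3.16-fold (2.62 to 3.84), and NR2F2, an orphan receptor that competes with HNF4A for direct repeat sites, which was 2.99-fold higher (2.85 to 3.14). The endoderm factor GATA6 was 1.94-fold higher (1.72 to 2.20) and the hepatoblast factor TBX3 1.70-fold higher (1.62 to 1.77). Lower were CREB3L3, a membrane-bound factor of the fasting response, 3.32-fold (2.92 to 3.8), and NR0B2, a receptor without a DNA-binding domain that represses HNF4A, 3.06-fold (2.76 to 3.39). NR5A2 and CEBPB were 2.30-fold (1.80 to 2.96) and 1.99-fold (1.89 to 2.1) lower.

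Coregulators that these factors recruit also differed between the groups. All 15 listed were tested, with 7 called higher, 3 lower and 5 neither (median 0.29), beside 20.1% higher and 21.8% lower over all tested genes. Under plain library size, where 33.2% of all tested genes were higher and 14.3% lower, 11 were higher and 1 lower. The coactivator NCOA1 was 2.62-fold higher (2.35 to 2.93), and the corepressors NRIP1 and NCOR1 were 1.57-fold (1.49 to 1.65) and 1.49-fold (1.43 to 1.55) higher. PPARGC1A, the coactivator of HNF4A and FOXO1 in fasting, was 2.30-fold lower (2.1 to 2.53). NCOA3 was 1.32-fold lower (1.27 to 1.37), and HDAC3, a partner of PROX1 in repression, was 1.27-fold lower (1.2 to 1.35).

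Textbook target genes of the 4 families were mostly lower in shFTO. The lists were drawn up with earlier results of these data known, so their direction is not independent evidence. Of 45 matched targets outside the 8 members, 9 stood in more than 1 list and 33 were tested. Of these 33, 25 were called lower, 21 of them past 2-fold, 6 higher and 2 neither, with a median log2 ratio of -1.5 against 0.01 over all tested genes. Of all tested genes 21.8% were called lower and 20.1% higher, and 11.3% were past 2-fold in either direction. Under plain library size 25 were lower and 7 higher, beside 14.3% and 33.2% of all tested genes.

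Among HNF4 targets 14 of 16 tested were called lower and none higher (median -1.46). G6PC1, the last enzyme of glucose release, had 143 and 168 reads in scramble and 3 and 6 in shFTO (39.20-fold lower, 20.38 to 86.53). PCK1, which commits carbon to gluconeogenesis, had 38 and 40 reads against 2 and 2. TTR, the thyroxine carrier bound by HNF4, FOXA and ONECUT factors, had 978 and 974 against 60 and 52 reads (19.77-fold lower, 16.34 to 24.14). The bile acid enzyme CYP8B1 had 58 and 48 against 3 and 8 reads (10.93-fold lower, 5.87 to 22.56). F9 had no read in any run, and APOC2 was tested and not called.

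HNF1 targets split more, with 11 of 15 tested called lower and 4 higher (median -1.68). The lower ones were led by AFP and the fibrinogen genes FGA, FGB and FGG, all at least 44.90-fold. Among the higher ones, the peptidase gene DPP4 was 4.49-fold higher (3.23 to 6.38), TM4SF4 1.67-fold (1.06 to 2.70) and NR1H4, the bile acid receptor, 1.42-fold (1.34 to 1.5). CRP had no read. Of 9 tested FOXA targets 8 were called lower (median -4.31), among them IGFBP1, 27.60-fold (26.66 to 28.58), and CPS1, the entry enzyme of the urea cycle, was 1.54-fold higher (1.43 to 1.65). TDO2 had no read. Of the 4 tested ONECUT targets outside the 8 members, TTR, G6PC1 and SLC2A2 were lower, the glucose transporter gene SLC2A2 5.44-fold (3.74 to 8.12). The fourth, PFKFB1, had 16 and 9 reads in scramble and 22 and 30 in shFTO.

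**Figure D5:**
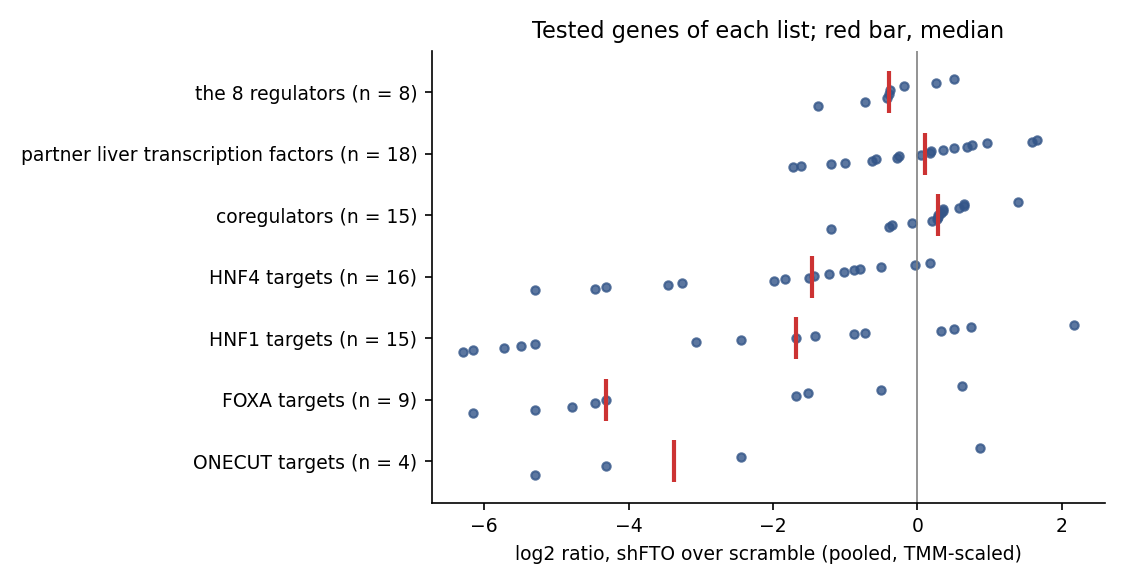
Log2 ratio of shFTO over scramble (pooled, TMM-scaled) for each tested gene of the 8 regulators, partner transcription factors, coregulators and 4 target lists without regulators, with a red bar at each list's median. The 8 regulators lie between -1.38 and 0.51 with a median of -0.39, while the medians of the 4 target lists lie between -4.31 and -1.46.

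Markers of other cell types moved with the groups in part. Biliary markers were higher in 3 of 5 tested cases and lower in 1, beside 20.1% higher and 21.8% lower over all tested genes. EPCAM was 1.29-fold (1.26 to 1.32) and the duct keratin gene KRT19 1.97-fold (1.92 to 2.02) higher. KRT7 had no read in scramble and 34 and 45 in shFTO, and SOX9 was 1.48-fold lower (1.44 to 1.52). Their summed level was 1605 and 1612 CPM in scramble and 1955 and 1944 in shFTO, and CFTR had at most 1 read per run. Neuroendocrine markers, listed because ONECUT2 and PROX1 are also expressed in such cells, summed to 7.62 and 7.15 CPM in scramble and 2.62 and 2.23 in shFTO, of which SYP gave 6.31 and 1.48 pooled CPM. Fibroblast markers summed to 23.1 and 23.8 against 6.59 and 7.11 CPM, with PDGFRB lower (6.42-fold, 5.42 to 7.66), COL1A1 higher (23.80-fold, 9.95 to 74.49) and COL3A1, DCN and LUM at 0. Of the intestinal list, drawn up because HNF4G is a gut factor, only VIL1 was tested, and CDX1 had no read. Pooled levels of VIL1 were 371 CPM in scramble and 356 CPM in shFTO, and it was not called. The part of these markers in the values of the 8 regulators was not tested.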

How the data were processed

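The authors deposited 4 tables of raw read counts per Ensembl gene, without normalization and without a line of unassigned reads. The submitters' processing notes name HTSeq 0.6.0, TopHat2 2.1.1 and build hg19. For strand setting and annotation release, the value is not given in the sources used here. Symbols and exon lengths came from identifier tables and GENCODE 29, which matched 51537 identifiers. GENCODE 29 is on another build and was used for names, lengths, gene order and transcript sequences only. Of 132 listed genes 131 were matched. Promoter windows came from RefSeq.

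The members and lists were chosen with earlier results of these data known. Runs were compared by chi-square over genes with at least 20 reads, pooled, and compared as TMM-scaled CPM ratios. Genes passing filterByExpr were tested with edgeR 4.0.16 in R 4.3.3 (quasi-likelihood, two-sided, adjusted p under 0.05), also on simulated data. Ratios between members are conditional odds ratios (scipy 1.17.1). Named were all members, FTO, and per list up to 4 genes each way with the largest fold among called genes (mean CPM of 1 or more), and genes at 0. Some genes of the lists are counted but not reported here by name. Others, such as KRT7, PFKFB1 and the genes beside members, were named after their values were seen. Alternatives were other scalings and filters, DESeq2 1.42.0, limma-voom (limma 3.58.1), a replicate block, leaving out each run, and, added later, a 1.5-fold threshold, another transcript length, other scalings of the lists, and removal of expression and length trends.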

Additional observations from a re-analysis of the deposited data

How the results depend on the processing

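Scaling by plain library size gave 4575 genes higher and 1972 lower in place of 2766 and 3001 (69.9% of calls higher in place of 48%), and 2 members called higher and 2 called lower in place of 1 and 5, since HNF4A, FOXA2 and ONECUT2 came under the threshold and PROX1 over it. RLE and upper quartile scaling kept 5 members lower and 1 higher. With a 1.5-fold threshold, added after the data were seen, 0 members were higher and 2 lower. Removing the expression trend left 1 higher and 4 lower, without HNF4A, and removing the length trend 1 and 4, without FOXA2. For the 1.5-fold threshold and the trend removals the share of all tested genes called was not taken. These member counts therefore have no background beside them. Restricting to the 8988 genes with at least 10 CPM on average left 1569 genes higher and 1901 lower, against 2766 and 3001 of all 13767 tested genes. No member's ratio changed sign under any setting run, and the 11 ratios between members moved by less than their intervals when a run was left out. Leaving out each run in turn gave 2628 to 2675 genes higher and 2868 to 2939 lower, 5 members lower and 1 higher each time, 8365 to 8521 genes called by edgeR, and 7 or 8 members called. With the replicate number as a block edgeR called 9216 genes in place of 9170, and 8 members. Run deviations of the 2 groups had a correlation of 0.00405. Runs that did not differ detectably beyond sampling cannot show whether the numbers mark a pairing. DESeq2 called 6880 genes and 7 members. The member not called was FOXA3, here, under plain library size, without scramble run 2 and without shFTO run 1. ONECUT1, with 63 and 79 reads in shFTO, had the widest interval of the 8 fold changes.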

Other observations

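The transcripts of the 8 regulators differed in how often they carry GGAC, the core of the sequence in which N6-methyladenosine is usually placed. No methylation was measured here, and the counts describe letters only. In the longest coding transcript HNF4A had 34 GGAC, or 5.28 per kilobase, and FOXA3, ONECUT1 and FOXA1 had 5.03, 4.78 and 4.54 per kilobase, above the median of 3.71 over 11970 tested genes. FOXA2 had 2.89, HNF4G 2.38, PROX1 2 and ONECUT2 1.98 per kilobase, below that median. Among the 4 genes above the median 1, FOXA1, was higher in shFTO, and among the 4 below it 1, PROX1.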
